A study of Mus musculus with 9 samples.

Results

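The transforming growth factor beta (TGF-beta) genes described here are the 3 ligands Tgfb1, Tgfb2 and Tgfb3, the receptors Tgfbr1, Tgfbr2 and Tgfbr3, the signal transducers Smad2, Smad3 and Smad7, and the secreted target Tgfbi. They were chosen by name, as the rows of the deposited gene count table that carry these 10 symbols, and each symbol matched a single row among 47729 genes. Expression was measured by RNA sequencing in 9 mouse cell cultures, 3 in each of 3 groups. NSC (cultures 1, 3 and 5) are wild-type primary neural stem cells from the subventricular zone, where stem cells of the adult forebrain reside. LTR (cultures 1 to 3) are tumour cells derived from such cells with the genotype lgT/Ras, and NF1 (cultures 1 to 3) are NSC-derived tumour cells with shp53, Nf1-/- and CDK4. All 3 groups were grown in standard neural stem cell culture for up to 10 passages. The design text calls the cultures of each cell type independent. The labels do not say whether the tumour cultures were transformed separately or whether any line is 1 clone, and they name no mouse strain or age. The p-values below set a difference between groups against the spread between cultures of a group. That spread was estimated over all 9 libraries in 1 fit, so a p-value for LTR against NSC also depends on the NF1 cultures.

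TGF-beta ligands are secreted in a latent complex and act once they are released from it. The free ligand binds the type II receptor encoded by Tgfbr2, which recruits and phosphorylates the type I receptor encoded by Tgfbr1, and this kinase phosphorylates Smad2 and Smad3, which enter the nucleus with Smad4. Tgfbr3 (betaglycan) is a co-receptor that presents ligand, Tgfb2 above all, and Smad7 is an inhibitory Smad that is itself induced by the signal. In the brain the pathway is known to restrain the proliferation of neural stem cells, and in malignant glioma it is known for its part in invasion and self-renewal.

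The 3 promoters below are shown because their genes passed the test between LTR and NSC and are in the promoter table used here, which held 6 of the 10 members (Tgfb1, Tgfb2, Tgfbr1, Tgfbr2, Smad3 and Tgfbi). The sequences are RefSeq bases of GRCm38.p6 just before the annotated start of transcription, written 5′ to 3′ on the strand of the gene. Capitals mark the letters of a TATA box (TATAAA), an E-box (CACGTG) or a GC box (GGGCGG). The windows are chr1:186705990-186706239 on the minus strand for Tgfb2, chr13:56609336-56609522 on the plus strand for Tgfbi and chr4:47352972-47353221 on the plus strand for Tgfbr1.
Tgfb2: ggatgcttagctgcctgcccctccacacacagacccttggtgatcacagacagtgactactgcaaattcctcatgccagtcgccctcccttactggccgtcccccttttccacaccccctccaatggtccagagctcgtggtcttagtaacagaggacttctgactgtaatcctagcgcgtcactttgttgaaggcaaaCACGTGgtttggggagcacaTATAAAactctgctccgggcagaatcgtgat
Tgfbi: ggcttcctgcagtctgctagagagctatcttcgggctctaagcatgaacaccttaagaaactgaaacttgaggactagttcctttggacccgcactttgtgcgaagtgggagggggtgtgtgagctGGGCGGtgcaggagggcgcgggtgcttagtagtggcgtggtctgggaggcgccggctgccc
Tgfbr1: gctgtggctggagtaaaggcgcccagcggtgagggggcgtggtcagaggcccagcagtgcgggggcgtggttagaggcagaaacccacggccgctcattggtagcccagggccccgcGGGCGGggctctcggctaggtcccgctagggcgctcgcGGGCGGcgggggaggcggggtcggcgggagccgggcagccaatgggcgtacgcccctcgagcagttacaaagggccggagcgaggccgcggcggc
The Tgfb2 window held an E-box that begins 51 bases before the start and a TATA box that begins 31 bases before it, and no GC box. In Tgfbr1 there were 2 GC boxes, beginning 133 and 95 bases before the start, in a window of 74.8% G and C against 53.6% for Tgfb2 and 59.4% for Tgfbi. Tgfbi held 1 GC box, which begins 124 bases before the RefSeq start, and its printed window of 187 bases ends at the GENCODE start, which lies upstream of the RefSeq start. Among the 250 bases before the start of 32851 RefSeq promoters, searched on both strands, 12.4% held TATAAA, 6.02% held CACGTG and 32.7% held GGGCGG. No member's window held the letters of an AP-1 site (TGACTCA), a cyclic AMP response element (TGACGTCA) or the Smad palindrome (GTCTAGAC), which were in 4.46%, 1.55% and 0.167% of all promoters. Such matches describe the letters in these windows and are not binding sites.

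Depth ran from 28600479 to 57231024 counts per library (LTR 2 and NSC 3), and 15696 genes, all 10 members among them, had enough counts to be tested. The NF1-labelled culture 2 stood apart from the other tumour libraries on the first principal component of all genes, which held 70.6% of the variance (-21.18 against 84.63 to 108.71). Within their groups, NSC 3 differed from NSC 1 and NSC 5, and LTR 2 differed from LTR 1 and LTR 3. The column headers place all NSC libraries in a lane of their own and all tumour libraries in another, so lane and tumour origin cannot be told apart. Levels are given as CPM, the count of a gene scaled to the total of its library. Trp53, the gene that a p53 hairpin would lower, went against its label: it was at 107.6 ± 6.20 CPM (SD, n = 3) in NSC and at 196.4 ± 39.3 CPM in the libraries labelled NF1 (log2 fold change 0.87, edgeR adjusted p = 0.0141). LTR, whose label names no p53 hairpin, was also above NSC, at 252.9 ± 29.3 CPM (log2 fold change 1.23, edgeR adjusted p = 0.00258). Nf1 was counted over the whole gene, whatever part of it was altered. Its level was 59.0, 97.2 and 40.1 CPM in NF1 1, 2 and 3 against 82.5 to 114.1 CPM in NSC (edgeR adjusted p = 0.205). Cdk4 was at 794.8 and 1123.7 CPM in NF1 1 and NF1 3 and at 392.9 CPM in NF1 2, inside the NSC range of 324.8 to 455.7 CPM. LTR, whose genotype names neither gene, had 40.3 to 80.0 CPM of Nf1 and 935.0 to 1020 CPM of Cdk4 (edgeR adjusted p = 0.0135 for Cdk4 against NSC), so these levels do not single out the NF1 label. Each direction given below for NF1 rests on these labels.

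In LTR, 2 of the 10 members rose against NSC (Tgfbr3 and Tgfbi), 2 fell (Tgfb2 and Tgfbr1) and 6 did not pass the edgeR quasi-likelihood test at an adjusted p under 0.05. Among all 15696 genes 14.9% rose and 20.9% fell in that comparison, so the number of members that passed is near the background. In the libraries labelled NF1, 2 members rose against NSC, Tgfbr3 and Tgfbi again, and 8 did not pass, against a background of 10.1% of all genes rising and 13.1% falling. The median log2 fold change of the members was 0.16 in LTR and 0.18 in NF1, beside -0.06 and 0.00 over all tested genes. Both comparisons use the same NSC libraries. In these bulk libraries, fewer cells of a kind and less RNA per cell cannot be told apart.

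**Figure D1:**
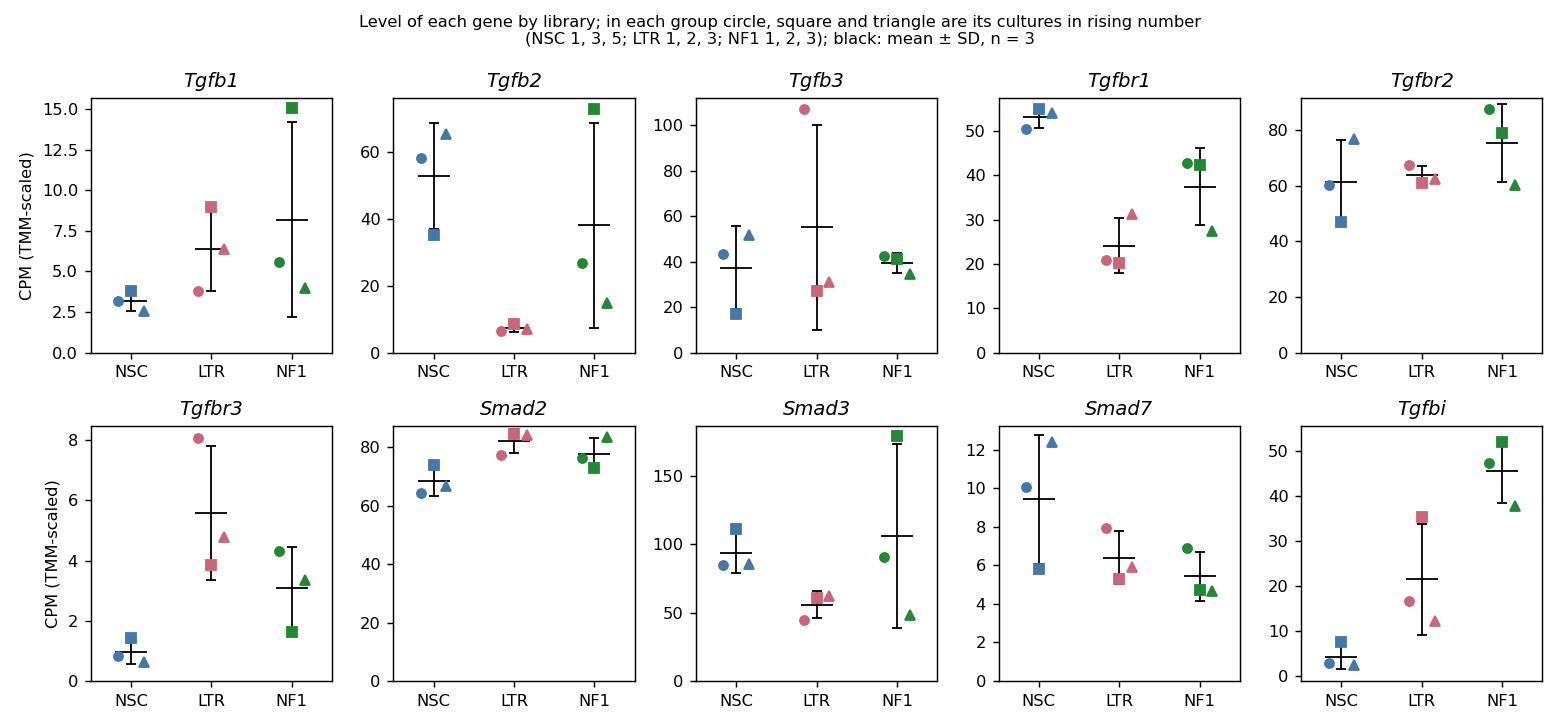
Level of each of the 10 genes in CPM (TMM-scaled, vertical axes of different range) in the 3 libraries of NSC, LTR and NF1, with the mean and SD of each group in black. The 3 LTR points of Tgfb2 sit at 6.55 to 8.51 CPM, below every other library, and all NSC points of Tgfbi sit below all tumour points.

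Tgfb2 was the only ligand to pass the edgeR test, and it did so only in LTR against NSC. Its level was 58.4, 35.1 and 65.3 CPM in NSC 1, 3 and 5, and 6.55, 8.51 and 6.96 CPM in LTR 1, 2 and 3. All LTR libraries lay below all NSC libraries, 7.21-fold lower in the fit (log2 fold change -2.85, SE 0.54, 95% interval -4.06 to -1.64, edgeR adjusted p = 0.00498). In the libraries labelled NF1, Tgfb2 was at 26.7, 72.9 and 14.8 CPM, with NF1 2 above every NSC library and the other two below every NSC library. The difference from NSC did not pass (log2 fold change -0.47, SE 0.50, edgeR adjusted p = 0.519). Without NF1 2 it was -1.34 with an adjusted p of 0.0121, so 1 library decides this call. Tgfb2 lies on the minus strand of chromosome 1 (186622792 to 186705989, ENSMUSG00000039239), and 2.14% of its exon bases overlap the gene Gm29491 on the other strand, which these libraries do not separate.

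Tgfb1, the ligand most studied in immunity and fibrosis, was low in every library. It was at 3.18, 3.77 and 2.57 CPM in NSC, 3.80, 8.96 and 6.39 CPM in LTR, and 5.56, 15.05 and 3.96 CPM in NF1 1, 2 and 3. Every tumour library lay above every NSC library, LTR 1 and NF1 3 only just, and NF1 2 was the highest of all. Neither difference passed, with log2 fold changes of 1.01 (SE 0.54, edgeR adjusted p = 0.168) in LTR and 1.37 (SE 0.54, edgeR adjusted p = 0.096) in NF1. With NF1 2 left out of the shared fit, the LTR difference was 1.01 with an adjusted p of 0.0499, and the NF1 difference was 0.59 with an adjusted p of 0.268.

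Tgfb3, the third ligand, differed more between cultures of a group than between groups. NSC 1, 3 and 5 had 43.4, 16.9 and 51.7 CPM, LTR 1, 2 and 3 had 107, 27.3 and 31.2 CPM, and NF1 1, 2 and 3 had 42.7, 41.3 and 34.4 CPM. LTR 1 was the highest and NSC 3 the lowest library, and the ranges overlapped in each comparison. The log2 fold change was 0.57 (SE 0.55, edgeR adjusted p = 0.441) in LTR and 0.08 (SE 0.55, edgeR adjusted p = 0.925) in NF1, and the sign of the first turned to -0.34 without LTR 1 and of the second to -0.18 without NSC 3. Exons of Tgfb3 (chromosome 12, 86056745 to 86079041, minus strand) overlap those of Gm37804 and Gm48008 on the other strand, and the larger overlap covers 7.6% of its exon bases.

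Tgfbr1, the type I receptor kinase (chromosome 4, 47353222 to 47414931, plus strand), fell in LTR. NSC 1, 3 and 5 were close together at 50.3, 55.0 and 54.0 CPM, and LTR 1, 2 and 3 were at 20.8, 20.3 and 31.3 CPM. No LTR library reached an NSC library, and the log2 fold change was -1.14 (SE 0.25, 95% interval -1.69 to -0.58, edgeR adjusted p = 0.00851). The libraries labelled NF1 lay between, at 42.7, 42.3 and 27.4 CPM. All 3 were below NSC, but NF1 3 was inside the LTR range, and the difference of -0.50 from NSC (SE 0.24) did not pass (edgeR adjusted p = 0.16).

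The type II receptor gene Tgfbr2 (chromosome 9, 116084293 to 116175360, minus strand), which starts the signal at the membrane, showed no difference beyond its spread. Its levels were 60.2, 46.9 and 76.8 CPM in NSC, 67.6, 61.1 and 62.6 CPM in LTR and 87.5, 78.8 and 60.1 CPM in NF1. LTR lay wholly inside the NSC range, and NF1 overlapped it from above. The 95% interval of the log2 fold change was -0.44 to 0.56 in LTR (0.06, edgeR adjusted p = 0.854), and the estimate was 0.30 in NF1 (SE 0.22, edgeR adjusted p = 0.346).

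Tgfbr3, the co-receptor betaglycan (chromosome 5, 107106570 to 107289629, minus strand), rose in LTR from a low level. It had 31, 79 and 24 counts in NSC 1, 3 and 5, or 0.821, 1.43 and 0.644 CPM, where 3 counts correspond to 0.0541 to 0.114 CPM over the libraries. In LTR 1, 2 and 3 it was at 8.09, 3.85 and 4.78 CPM, all above NSC, with a log2 fold change of 2.52 (SE 0.53, 95% interval 1.32 to 3.72, edgeR adjusted p = 0.00765), which is 5.75-fold. NF1 1, 2 and 3 had 4.32, 1.63 and 3.34 CPM, again above NSC, but NF1 2 exceeded NSC 3 by little. The NF1 difference was 1.68 (SE 0.52) and passed narrowly (edgeR adjusted p = 0.0454). It no longer passed in 11 of 18 alternatives, among them limma-voom (adjusted p = 0.055) and leaving out NSC 1, NSC 5, LTR 1, LTR 3, NF1 1 or NF1 3, where the adjusted p ran from 0.0529 to 0.15. Of its exon bases 4.54% overlap Gm43422, which has 2 counts in all libraries together.

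**Figure D2:**
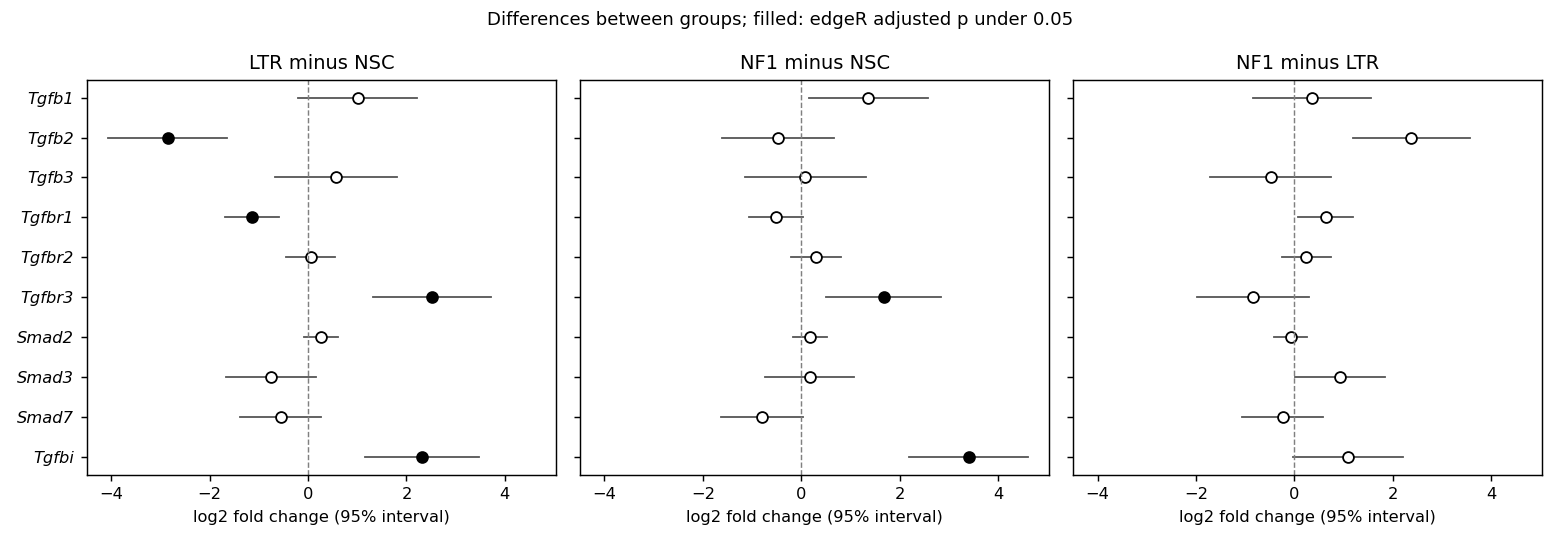
Log2 fold changes of the 10 genes with 95% intervals (horizontal axes) for LTR minus NSC, NF1 minus NSC and NF1 minus LTR, filled where the edgeR adjusted p was under 0.05. Tgfb2, Tgfbr1, Tgfbr3 and Tgfbi are filled in LTR minus NSC, Tgfbr3 and Tgfbi in NF1 minus NSC, and none in NF1 minus LTR.

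Smad2 and Smad3 carry the signal from the receptor to the nucleus, and neither passed in any comparison. Smad2 (chromosome 18) was the steadiest member, at 64.4, 74.1 and 66.9 CPM in NSC, 77.4, 84.6 and 84.3 CPM in LTR and 76.5, 73.0 and 83.6 CPM in NF1. LTR lay above NSC without overlap, yet the log2 fold change of 0.26 (SE 0.15) did not pass (edgeR adjusted p = 0.201), and in NF1 it was 0.18 (edgeR adjusted p = 0.403).

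Smad3 (chromosome 9, 63646767 to 63757994, minus strand) was at 84.9, 111 and 85.5 CPM in NSC and at 44.3, 60.5 and 62.1 CPM in LTR. All LTR libraries lay below all NSC libraries, with a log2 fold change of -0.75 (SE 0.40, edgeR adjusted p = 0.168). This difference passed when NF1 2 was left out of the shared fit (-0.75, adjusted p = 0.038) and when the fit held only the 6 libraries of LTR and NSC (-0.72, adjusted p = 0.0189). NF1 1, 2 and 3 were spread over 90.4, 179 and 47.9 CPM, which brackets the NSC range. NF1 minus NSC was 0.17 (SE 0.40, edgeR adjusted p = 0.78), and without NF1 2 it turned to -0.43.

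Smad7, the inhibitory Smad (chromosome 18), was at 10.1, 5.79 and 12.4 CPM in NSC, 7.95, 5.30 and 5.91 CPM in LTR and 6.90, 4.71 and 4.68 CPM in NF1. NSC 3 lay among the tumour libraries, and NSC 1 and NSC 5 lay above all of them. Log2 fold changes were -0.56 (SE 0.37, edgeR adjusted p = 0.253) in LTR and -0.79 (SE 0.37, edgeR adjusted p = 0.144) in NF1.

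Tgfbi encodes a secreted matrix protein that TGF-beta induces in many cell types (chromosome 13, 56609523 to 56639562, plus strand). It had the largest increase of the 10 members in the libraries labelled NF1. NSC 1, 3 and 5 had 2.99, 7.54 and 2.39 CPM, and NF1 1, 2 and 3 had 47.3, 52.0 and 37.7 CPM. Each NF1 library lay above every LTR and NSC library, 10.6-fold over NSC (log2 fold change 3.40, SE 0.54, 95% interval 2.19 to 4.61, edgeR adjusted p = 0.00349). LTR 1, 2 and 3 were at 16.7, 35.4 and 12.3 CPM, all above NSC and LTR 2 the highest, and the log2 fold change from NSC was 2.31 (SE 0.51, 95% interval 1.16 to 3.47, edgeR adjusted p = 0.00935). Without NSC 3, the NSC culture with the most Tgfbi, the differences were 4.17 in NF1 and 3.12 in LTR, both past the test.

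NSC 3, LTR 2 and NF1 2, the libraries named above as apart over all genes, were also the extremes of their groups for several members. NSC 3 had the least Tgfb2, Tgfb3, Tgfbr2 and Smad7 of the NSC libraries and the most of the other 6 members. LTR 2 had the most Tgfb1, Tgfb2, Smad2 and Tgfbi of the LTR libraries and the least of the other members except Smad3. The summed level of 15 markers of mural cells and fibroblasts was 318.7 CPM in NSC 3 against 2050 and 2576 CPM in NSC 1 and NSC 5, 25.5 to 160.0 CPM in LTR and 12.4 to 49.7 CPM in NF1. Of these markers 9 were tested: 6 fell and 3 rose in LTR, and 6 fell and 1 rose in NF1. Over all genes, 20.9% fell and 14.9% rose in LTR, and 13.1% fell and 10.1% rose in NF1. The counts of endothelial and myeloid markers below stand beside the same shares. Most of the sum in LTR 1 was Col3a1, at 152 CPM, and most of that in NF1 2 was the pericyte marker Rgs5, at 38.4 CPM against at most 0.510 CPM in every other library. Abcc9 and Lum were at 0 in every tumour library, and Lum had 2 to 5 counts in the NSC libraries. NF1 2 had the most Tgfb1, Tgfb2, Smad3 and, by little, Tgfbi of all 9 libraries. Its 12 endothelial markers summed to 164.6 CPM, of which Flt1 made 155.4 CPM, against 26.2 and 46.4 CPM in NF1 3 and NF1 1, 31.6 to 40.0 CPM in LTR and 10.4 to 20.3 CPM in NSC. Of the 8 endothelial markers tested 2 rose and 2 fell in each tumour group. The junction protein Cdh5 rose from 0.0541 to 0.322 CPM in NSC to 0.623 to 1.28 CPM in LTR (edgeR adjusted p = 0.0176) and 0.956 to 1.82 CPM in NF1 (edgeR adjusted p = 0.012), as did Flt1. Tie1 and Cldn5 were at 0 in every tumour library, and Cldn5 was at 0 in NSC too. For the 15 microglial and myeloid markers the sums were 24.8 CPM in NF1 2, 7.82 and 8.09 CPM in the other NF1 libraries, 4.39 to 10.5 CPM in LTR and 4.18 to 11.3 CPM in NSC. Of that sum in NF1 2, 22.1 CPM came from Cd68. Only 4 of the 15 had enough counts to test: Laptm5 and Tmem119 rose in LTR, Laptm5 and Cd68 rose in NF1, and P2ry12 fell in both. Cx3cr1, Itgam, C1qa, C1qb, C1qc, Tyrobp and Trem2 were at 0 in every tumour library. The 15 neural stem cell markers, all tested, summed to 13842 to 14595 CPM in NSC, 6861 to 12769 CPM in LTR and 11282 to 13678 CPM in NF1, and Slc1a3 of this list averaged 0.0680 CPM in LTR. The part of these markers in the differences of the members was not tested.

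Set directly against each other, the tumour groups differed in no member by the edgeR test, and none of the 15696 genes passed in either direction (0% higher and 0% lower). At an unadjusted p under 0.05 there were 1596 genes, 10.2% of those tested, with 3 members among them, while DESeq2 called 330 genes and limma-voom 1. The members with an unadjusted p under 0.05 were Tgfb2, Tgfbr1 and Smad3, each with a higher estimate in NF1. Tgfb2 came nearest, 2.38 log2 units higher in NF1 than in LTR (SE 0.53, 95% interval 1.19 to 3.57) with no overlap of the libraries and an edgeR adjusted p of 0.239. DESeq2 called this difference (2.32, adjusted p = 0.00144), and over all alternatives its adjusted p ran from 0.00144 to 0.68. Without NF1 2 the difference was 1.51 (edgeR adjusted p = 0.114). Tgfbi was also without overlap, 1.09 higher in NF1 (SE 0.49, edgeR adjusted p = 0.502). The estimates were 0.63 for Tgfbr1 (edgeR adjusted p = 0.434) and 0.93 for Smad3 (edgeR adjusted p = 0.484), and the latter was 0.32 without NF1 2. The other 6 members had estimates from -0.85 (Tgfbr3) to 0.36 (Tgfb1).

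**Figure D3:**
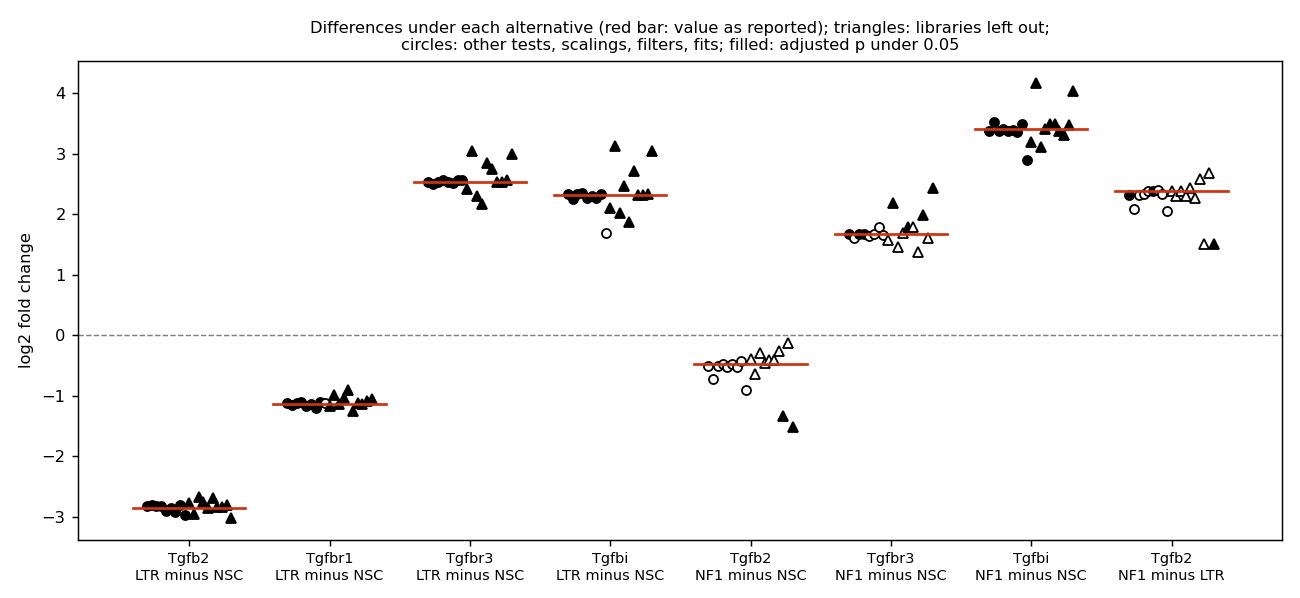
Log2 fold changes of 8 differences (vertical axis) under each alternative: circles are other tests, scalings, filters and fits, triangles are fits with libraries left out, filled symbols have an adjusted p under 0.05, and the red bar is the value reported. Tgfb2 in LTR minus NSC is filled throughout, Tgfbr3 in NF1 minus NSC is filled in some only, and Tgfb2 in NF1 minus NSC is filled in 2 fits without NF1 2.

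Levels of different genes were compared as CPM per kilobase of exon. In NSC the order was Smad3 at 16.9, Tgfb3 at 11.03, Tgfb2 at 9.14, Tgfbr1 at 8.13, Smad2 at 7.80, Tgfbr2 at 7.49, Smad7 at 2.08, Tgfbi at 1.14, Tgfb1 at 0.630 and Tgfbr3 at 0.147 CPM per kilobase. Smad3 lay above Tgfb3, Tgfbr2 above Smad7, and Tgfb1 above Tgfbr3 without overlap of the libraries, and the other neighbours in this order overlapped. Tgfb2 and Tgfb3 lay above Tgfb1 per length in every NSC library. LTR had Tgfb3 first at 16.3, with a spread from 8.07 to 31.7, then Smad3 at 10.0, Smad2 at 9.35, Tgfbr2 at 7.79, Tgfbi at 5.70, Tgfbr1 at 3.69, Smad7 at 1.41, Tgfb2 at 1.27, Tgfb1 at 1.27 and Tgfbr3 at 0.852 CPM per kilobase. Here the neighbours without overlap were Smad2 over Tgfbr2 and Tgfbr1 over Smad7. Tgfb2 thus stood at rank 3 in NSC and rank 8 in LTR, where its libraries overlapped those of Tgfb1. The libraries labelled NF1 had Smad3 at 19.1, Tgfbi at 12.1, Tgfb3 at 11.7, Tgfbr2 at 9.22, Smad2 at 8.85, Tgfb2 at 6.59, Tgfbr1 at 5.73, Tgfb1 at 1.62, Smad7 at 1.20 and Tgfbr3 at 0.473 CPM per kilobase. Tgfbr1 over Tgfb1 and Smad7 over Tgfbr3 did not overlap. Tgfbr1 and Tgfbr2, the receptors that form the signalling complex, overlapped in NSC, whereas in LTR and in NF1 every library had more Tgfbr2 per length than the highest library had Tgfbr1. With the longest transcript in place of all exons, Tgfb1 was at 1.23, 2.48 and 3.18 in NSC, LTR and NF1.

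**Figure D4:**
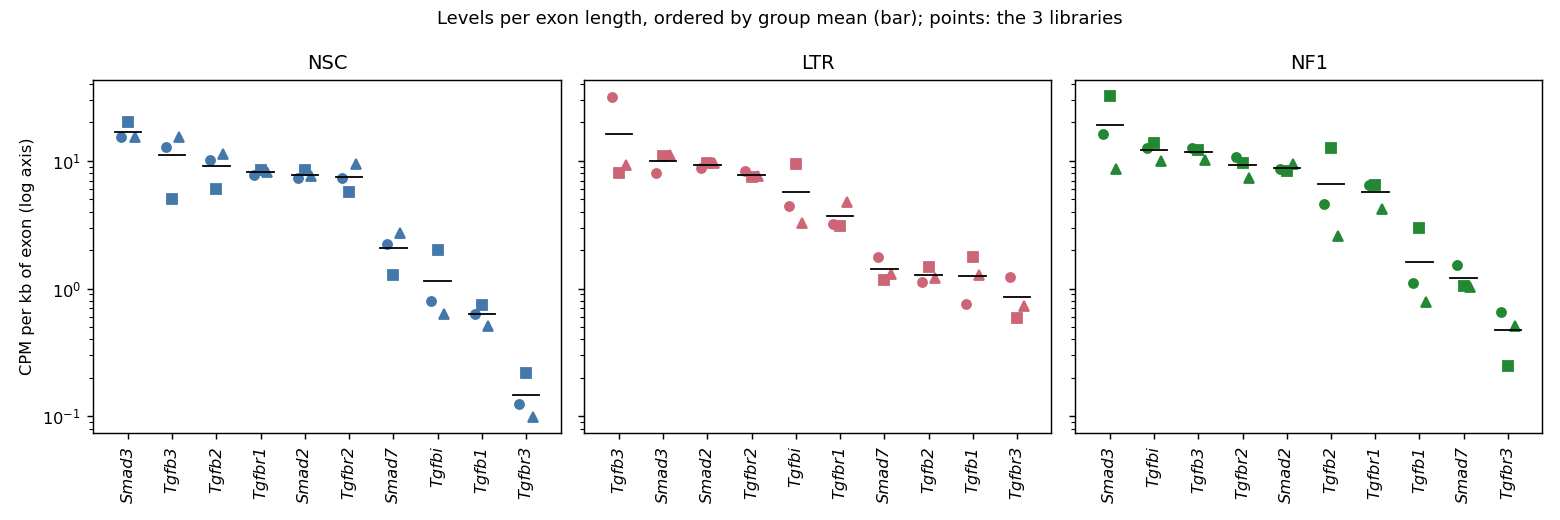
Levels of the 10 genes in CPM per kilobase of exon (log axis) in NSC, LTR and NF1, ordered by the group mean (bar), with the 3 libraries as points. Tgfbi moves from rank 8 in NSC to rank 5 in LTR and rank 2 in NF1, and Tgfb2 from rank 3 in NSC to rank 8 in LTR.

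Genes that hold the ligands latent or release them were more often lower than higher in the tumour cells. Of 18 such genes 15 were tested. In LTR 9 fell, 1 rose and 5 did not pass, with a median log2 fold change of -2.13, and in NF1 8 fell, 1 rose and 6 did not pass, with a median of -1.49. Falls also outnumbered rises over all genes, with 20.9% falling and 14.9% rising in LTR and 13.1% and 10.1% in NF1, where the medians were -0.06 and 0.00. Mmp14, a membrane metalloprotease able to free latent ligand, was at 377 to 419 CPM in NSC, 35.2 to 42.4 CPM in LTR (log2 fold change -3.36, edgeR adjusted p = 0.00042) and 62.5 to 148 CPM in NF1 (-1.93, edgeR adjusted p = 0.00274). Itgb5, an integrin chain that pairs with Itgav to bind latent ligand, fell in both (-1.68 in LTR and -1.49 in NF1), and Itgav fell by 2.20 on the log2 scale in LTR. Itgav was also lower in NF1, at 163 to 358 CPM against 699 to 736 CPM in NSC. Fbn1, the fibrillin to which latent complexes are anchored, fell from 153 to 208 CPM in NSC to 33.3 to 53.8 CPM in LTR (log2 fold change -2.13, edgeR adjusted p = 0.00143) and 32.6 to 57.3 CPM in NF1 (-2.20, edgeR adjusted p = 0.00182). Fbln5, an elastic fibre protein, fell by 6.41 in NF1, and LTR (0.985 to 2.70 CPM) also lay below every NSC library. For this gene NSC 3 (5.05 CPM) was again below NSC 1 and NSC 5 (33.96 and 41.8 CPM). The most abundant gene of the list, Itgb1, was at 0.42 and 0.47 log2 units below NSC in LTR and NF1 and did not pass. The gene that rose in both was the integrin chain Itgb3 (1.97 in LTR and 2.39 in NF1), named after its values were seen, and neither call held without NSC 1.

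Among 18 activin-type ligands, receptors and antagonists, 14 were tested. In LTR 4 fell, 1 rose and 9 did not pass (median 0.05), near the 20.9% and 14.9% of all genes, and in NF1 3 fell and 11 did not pass (median 0.13), where 13.1% of all genes fell. Gdf15, a distant ligand of the family induced by stress, had 119, 878 and 127 counts in NSC and 3, 3 and 0 in LTR and 0, 11 and 0 in NF1, with fitted log2 fold changes of -6.76 (edgeR adjusted p = 0.00945) and -5.96 (edgeR adjusted p = 0.0174). Fstl1, a secreted glycoprotein related to follistatin, fell by 2.30 and 2.73, and Cd109, a surface protein that limits TGF-beta receptor signalling, fell by 3.34 and 3.04. Acvrl1, a type I receptor of the family, rose in LTR from 0.159 to 0.215 CPM in NSC to 0.474 to 0.763 CPM (edgeR adjusted p = 0.0362), a call lost when any of the 6 LTR and NSC libraries was left out. The NF1 count of falls was 1 without NF1 1. Inhbb, a chain of activin B, was the most abundant gene that did not pass (0.38 in LTR and 0.75 in NF1).

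Of 23 other Smads, Smad partners and Smad repressors, 22 were tested. In LTR 2 rose, 6 fell and 14 did not pass (median -0.36), near the 14.9% and 20.9% of all genes. In NF1 2 rose, 7 fell and 13 did not pass (median -0.18), beside 10.1% and 13.1% of all genes. Tgif1 and Tgif2, related homeodomain repressors of Smad2 and Smad3 targets, moved in opposite directions. Tgif1 rose from 22.8 to 30.8 CPM in NSC to 107 to 151 CPM in LTR (log2 fold change 2.34, edgeR adjusted p = 0.000398) and 119 to 144 CPM in NF1 (2.31, edgeR adjusted p = 0.000468). Tgif2 fell from 13.4 to 15.5 CPM to 2.10 to 3.82 CPM in LTR (-2.27, edgeR adjusted p = 0.00229) and 2.87 to 5.06 CPM in NF1 (-1.87, edgeR adjusted p = 0.00647). The corepressor Ski fell by 1.85 in LTR, and the deubiquitinase Usp15 rose by 1.08 there. In NF1 Ski was also lower, at 51.4 to 119 CPM against 165 to 235 CPM in NSC. Usp15 was also higher in NF1, at 89.9 to 151 CPM against 67.2 to 69.2 CPM in NSC. In NF1, Bambi, a receptor-like protein without a kinase, fell by 1.78, and Smad9, a Smad of the bone morphogenetic protein branch, fell to 2, 4 and 4 counts from 78, 149 and 97 in NSC. In LTR both also lay below NSC. Bambi was at 7.80 to 20.3 CPM there against 34.7 to 40.5 CPM in NSC, and Smad9 had 9, 0 and 4 counts. Smad5, of the same branch as Smad9, did not pass (0.39 and 0.38). Without NF1 1 or NSC 5 the NF1 count of falls was 4, and without NF1 1, NF1 3, NSC 1 or NSC 5 the count of rises was 1.

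The 34 other genes known as responders to TGF-beta moved in both directions. Of 31 tested in LTR 4 rose, 13 fell and 14 did not pass (median -0.79), and in NF1 3 rose, 14 fell and 14 did not pass (median -0.57). Over all genes 14.9% rose and 20.9% fell in LTR (median -0.06) and 10.1% rose and 13.1% fell in NF1 (median 0.00), so the rises are near the background. Acta2 (smooth muscle actin), Tagln (transgelin) and Col1a2 (a collagen I chain) fell to near 0. Acta2 had 30088, 9144 and 34229 counts in NSC 1, 3 and 5 against 7, 64 and 8 in LTR and 0, 5 and 0 in NF1. Col1a2 was at 257.7, 23.9 and 397.3 CPM in NSC and at 0.0763 to 0.299 CPM in LTR and 0.319 to 0.717 CPM in NF1. These genes, with Col1a1, are also on the list of mural cell and fibroblast markers given above, and in NSC they were lowest in NSC 3. Col3a1, a collagen III chain on both lists, went the other way in LTR, at 152, 30.4 and 16.4 CPM against 1.75, 0.180 and 1.15 CPM in NSC 1, 3 and 5 (log2 fold change 6.03, edgeR adjusted p = 0.00609). Timp1, an inhibitor of metalloproteases, rose from 20.7 to 37.5 CPM in NSC to 186 to 511 CPM in LTR (log2 fold change 3.44, edgeR adjusted p = 0.00128) and 240 to 422 CPM in NF1 (3.60, edgeR adjusted p = 0.00146). Cdkn2b, a cyclin-dependent kinase inhibitor and a classical target, rose by 1.97 in LTR. It was also higher in every NF1 library, at 94.8 to 161 CPM against 43.2 to 46.1 CPM in NSC. Tnc, the matrix protein tenascin C, did not pass (-0.72 and 0.67), and NF1 2 had 5973 CPM of it. The count of falls in NF1 was 7 without NSC 1 or NSC 5, 8 without NF1 3 and 9 without NF1 1, and 5 genes rose without NF1 3.

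**Figure D5:**
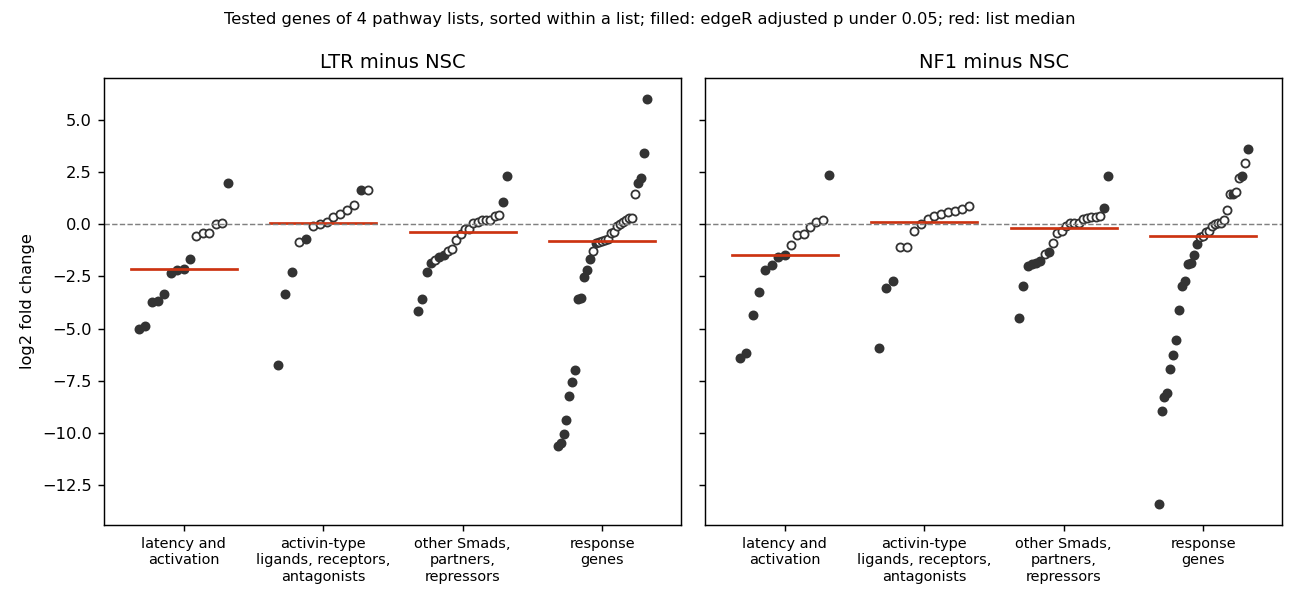
Log2 fold changes (vertical axis) of the tested genes of 4 pathway lists for LTR minus NSC and NF1 minus NSC, sorted within a list, filled where the edgeR adjusted p was under 0.05, with the list median in red. The medians of the latency and activation genes, -2.13 and -1.49, are the lowest of the 4 lists in both comparisons.

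For the members that passed in any comparison, the tested genes with the most similar pattern were found by Pearson correlation of log2 CPM over the 9 libraries, which fall into groups, so the values describe a shared pattern over groups and libraries. For Tgfb2 these were Serpinb8 (r = 0.9932), Cyb5d2 (0.9929) and BC034090 (0.9855). Tgfbr1 was most like Gclc (0.9806), Nos1ap (0.9775) and Fzd5 (0.9769), and Tgfbr3 most like Dlx4 (0.9903), Polr3e (0.9847) and 4931414P19Rik (0.9793). The nearest to Tgfbi were Rbm45 (0.9748), Hspa1b (0.9725) and Tpgs2 (0.9698).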

How the data were processed

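Gene counts of 9 RNA sequencing libraries were analysed. Per the labels' protocols, RNA came from RNeasy Plus Mini columns and went into NEBNext Ultra RNA libraries, which do not mark strand. The values deposited by the authors are raw counts for each gene. HTSeq and STAR 2.5.2a, DESeq2 1.8.2 and the builds GRCm38 and mm10 are listed in the submitters' processing notes. The annotation release and counting mode were not given in the sources used here.

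In R 4.3.3 with edgeR 4.0.16, genes were filtered by filterByExpr (minimum count 10), scaled by TMM and fitted in 1 model of all 9 libraries. Pairs of groups were compared by edgeR's quasi-likelihood test, with p-values adjusted by Benjamini-Hochberg over 15696 genes, and a gene passed under 0.05. SEs and 95% intervals come from the F statistic. CPM are TMM-scaled, and exon lengths and coordinates are from GENCODE M21 (GRCm38), matched for 47224 of 47729 identifiers. No library was a copy of another: chi-square per degree of freedom within groups ran from 13.4 (NSC 1 and NSC 5) to 395 (NF1 2 and NF1 3). NSC 1 and NSC 5 were thus the most alike, and NSC 3 was at 182 and 203 against them. LTR 2 was at 189 and 133 against LTR 1 and LTR 3, which were at 39.2 with each other. Why NSC 1 and NSC 5 were so alike was not tested. The model was also run on counts simulated from its own fitted spread, which checks the code and gives no support to the calls made here.

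Besides the members, the text names up to 4 passing genes per list and comparison by adjusted p, its most abundant gene that did not pass, the genes of the labels and the 3 genes nearest each passing member. Markers at 0 or with high levels in single libraries, Itgb3 and Col3a1 in LTR were named after their values were seen. The members and lists were chosen with earlier results of these data known. Alternatives were DESeq2 1.42.0, limma-voom (limma 3.58.1), other scalings and filters, a fit of 6 libraries, a replicate block, libraries left out and, for levels, the longest transcript.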

Additional observations from a re-analysis of the deposited data

How the results depend on the processing

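With 3 cultures a group, the calls depend on the spread. Tgfb2 and Tgfbr3 in LTR against NSC and Tgfbi in NF1 against NSC passed in every alternative that tested them (adjusted p up to 0.0243, 0.0364 and 0.0223). Under the filter of 10 CPM, Tgfb1, Tgfbr3 and Smad7 were too low to test. No scaling moved the median of all genes by over 0.06. Fewer libraries or genes were in some fits, and beyond that the cause of each change was not tested.

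For LTR against NSC, 5634 genes and 4 members passed. Leaving out a library gave 3281 (NSC 1) to 7640 genes (3452 without NSC 5, 3651 without LTR 3) and 4 to 6 members. The replicate block gave 3477 genes and 2 members, with Tgfbr1 (adjusted p = 0.0611) and Tgfbi (0.0649) lost. The labels' replicate numbers do not pair the cultures: correlations of same-numbered deviations ran from -0.18 to 0.12.

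For NF1 against NSC, 3631 genes and 2 members passed. Without a library there were 1752 (NSC 1) to 6900 (NF1 2) genes (1857 without NSC 5, 1898 without NF1 1, 2373 without NF1 3) and 1 to 3 members. The 10 CPM filter gave 2103 genes, the block 1942, and leaving out both NF1 2 and NSC 3 gave 7485. There was 1 member under limma-voom, library totals, no filter, the 10 CPM filter, only the 6 libraries and the block. DESeq2 added Tgfb1 (adjusted p = 0.0426). With the block the Smad partner list had 1 rise and 3 falls.

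For NF1 against LTR, 0 genes passed in edgeR, 330 in DESeq2, 1 in limma-voom, 52 without a filter, 104 without both NF1 2 and NSC 3, and 0 to 34 without a single library. Tgfb2 was the 1 member called under DESeq2, without a filter (adjusted p = 0.0452) and without both libraries (0.0494).

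Signs turned for values that passed in neither setting. For LTR against NSC these were Tgfbr2 (-0.00797 under the 10 CPM filter, -0.0459 without both libraries) and Tgfb3 (-0.34 without LTR 1, range to 1.01 without LTR 2). For NF1 against NSC, Smad3 was -0.018 under limma-voom, -0.29 with the block and -0.25 without both, and ran from -0.43 (without NF1 2) to 0.48 with 1 library left out. Tgfb3 was -0.25 without both and ran from -0.18 (without NSC 3) to 0.39. For NF1 against LTR, Tgfb3 ran from -0.84 to 0.43 (without LTR 1), and Tgfb1 from -0.42 (without NF1 2) to 0.62, and was -0.42 without both.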
